A study of Mus musculus with 30 samples.

Results

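The replication-dependent histone genes of the mouse were described in cardiac myocytes across genotype, age and endurance exercise. All protein-coding entries of the count table whose symbol begins with Hist1h, Hist2h, Hist3h or Hist4h were taken, which gave 67 of 52550 genes. They comprised 6 linker histone H1 genes, 18 H2A, 18 H2B, 12 H3 and 13 H4 genes. By cluster, 54 lie in Hist1 on chromosome 13, 10 in Hist2 on chromosome 3, 2 in Hist3 on chromosome 11 and 1 in Hist4 on chromosome 6 (GENCODE M21, GRCm38).

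Total RNA of cardiac myocytes was sequenced after depletion of ribosomal RNA, with 5 libraries in each of 6 groups. The groups were Myh6-Cre:DspW/F mice and wild types at 6 months of age after 3 months of endurance treadmill running, the same genotypes at 6 months with regular activity, and the same genotypes at 3 months. DspW/F mice carry 1 floxed copy of Dsp, the gene of the desmosomal protein desmoplakin, and Cre under the myocyte promoter of Myh6 acts on that copy in cardiac myocytes; they are called heterozygotes here. Whether wild types carried Cre is not stated in the labels, so the transgene and the loss of 1 Dsp copy cannot be told apart. Nor is it stated which libraries came from separate animals, so p-values measure the spread between libraries.

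Replication-dependent histone genes supply the core histones H2A, H2B, H3 and H4, around which DNA is wrapped in nucleosomes, and the linker H1, which binds DNA between them. Their genes lack introns in most cases and lie in clusters. Their mRNAs are made chiefly in S phase and end, not in a poly(A) tail, but in a conserved stem-loop that is bound by SLBP, cut by a complex containing the U7 snRNP, and degraded when DNA synthesis stops. Some of these genes also give polyadenylated transcripts that read through the stem-loop in differentiated cells. Adult cardiac myocytes rarely divide, and their replacement histones, such as H3.3 from H3f3a and H3f3b, are made outside S phase from ordinary polyadenylated mRNAs.

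The stem-loop is the feature that defines these mRNAs, and it was found after the stop codon in the annotated transcripts of 46 of the 67 members. It was present in 4 of 6 H1, 11 of 18 H2A, 10 of 18 H2B, 9 of 12 H3 and 12 of 13 H4 genes. A member without a match either has another sequence there or an annotated transcript that stops short of it. The stem-loops below, from GENCODE M21 transcripts, are those of genes whose levels are given later. Capitals mark the paired arms of the stem, with T for U, and the loop and the flanking bases are in lower case.
Hist1h1c: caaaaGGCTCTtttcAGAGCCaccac
Hist2h2ac: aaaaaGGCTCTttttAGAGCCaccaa
Hist1h2be: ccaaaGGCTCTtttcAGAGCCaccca
Hist1h3e: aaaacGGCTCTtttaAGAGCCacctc
Hist1h4h: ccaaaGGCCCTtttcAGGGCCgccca
Hist1h4j: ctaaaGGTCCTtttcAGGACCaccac
The 16-base stem-loop of Hist1h1c was shared letter for letter by 26 members of the H1, H2A, H2B and H3 classes. The stem-loop of Hist1h4h was found in H4 genes only, in 7 of them. That of Hist1h4j was shared with Hist1h4b. In the longest annotated transcript, 23 members continued for more than 100 bases past the stem-loop, 840 bases in Hist1h1c and 770 in Hist1h4d, and 23 ended within 100 bases of it, 46 bases past it in Hist1h4h.

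The promoters of the classes also differed in sequence. RefSeq gave windows from 250 bases before to 50 bases after the start for 61 members, 62 windows in all (GRCm38.p6). A CCAAT box (CCAAT on either strand) occurred in 100% of the H1, H2A, H2B and H3 windows, in 25.0% of the 12 H4 windows and in 37.4% of all 32851 RefSeq windows. The octamer ATGCAAAT, on either strand, was found in 7 of 17 H2A windows, in 7 of 17 H2B windows and in no window of the other classes, against 1.7% of all windows. The letters TATAAA, on either strand, were found in 56.5% of the members' windows and in 13.6% of all windows. The windows below belong to an H1, an H2B and an H4 gene that were lower in exercised hearts, and differ in these motifs. They span chr13:23738557-23738856, chr13:23746484-23746783 and chr13:23530794-23531093, all on the + strand, and capitals mark any CCAAT, octamer or TATAAA match.
Hist1h1c: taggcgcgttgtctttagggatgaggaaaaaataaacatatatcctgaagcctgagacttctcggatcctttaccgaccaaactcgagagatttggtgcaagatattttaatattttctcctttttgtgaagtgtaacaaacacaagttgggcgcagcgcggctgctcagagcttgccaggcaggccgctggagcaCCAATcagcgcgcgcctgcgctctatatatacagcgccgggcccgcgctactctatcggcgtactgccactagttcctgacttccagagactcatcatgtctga
Hist1h2bb: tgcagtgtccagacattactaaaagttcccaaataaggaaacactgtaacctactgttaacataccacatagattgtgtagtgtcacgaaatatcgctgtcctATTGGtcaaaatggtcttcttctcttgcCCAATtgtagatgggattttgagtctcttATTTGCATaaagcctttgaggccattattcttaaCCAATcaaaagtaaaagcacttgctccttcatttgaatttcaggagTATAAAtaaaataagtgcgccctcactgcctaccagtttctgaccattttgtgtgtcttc
Hist1h4h: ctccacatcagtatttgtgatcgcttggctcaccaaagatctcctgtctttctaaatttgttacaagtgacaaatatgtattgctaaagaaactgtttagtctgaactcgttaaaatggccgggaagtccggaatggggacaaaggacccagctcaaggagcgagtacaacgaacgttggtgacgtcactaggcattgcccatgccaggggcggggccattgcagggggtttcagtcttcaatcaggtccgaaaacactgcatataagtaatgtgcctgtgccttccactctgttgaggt
The Hist1h2bb window held the octamer, CCAAT and TATAAA, the Hist1h1c window held CCAAT alone, and the Hist1h4h window held none of them.

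Near-identical copies limit what can be counted for this family. For each gene, the share of its 100-base stretches that occur in no other annotated gene was computed from the GENCODE transcripts. This share was under 20% for 15 members, which together held 0.856% of the family's counts. It was at least 80% for 21 members, which held 68.6%. With 50-base stretches the share was lower for many members, at 45.0% in place of 83.1% in Hist2h2ac. In Hist1h3e it was 26.6% in place of 57.1%, and in Hist1h1c 91.5% in place of 94.9%. Of the 6 members without a read in any library, Hist2h2aa1, Hist2h2aa2, Hist2h2bb, Hist2h3b and Hist2h3c1 had no unique 100-base stretch at all. In Hist1h2aa 89.7% were unique. All 6 also overlap another annotated gene, Hist2h2aa1, Hist2h2bb and Hist2h3c1 on the same strand and the others on the opposite strand only. Every H2A gene has an overlap on the opposite strand. The strand setting of the counting is not given, so counts of overlapping genes are uncertain, and the part of overlap was not tested. Across the 67 members the share of unique stretches and the mean level per kb had a Spearman rho of 0.499, a description in which the points share the same libraries. How the authors treated reads that match several copies is not given in the sources used here, so the levels of the less unique members are uncertain, and a low count of such a member is not evidence of low expression.

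**Figure D1:**
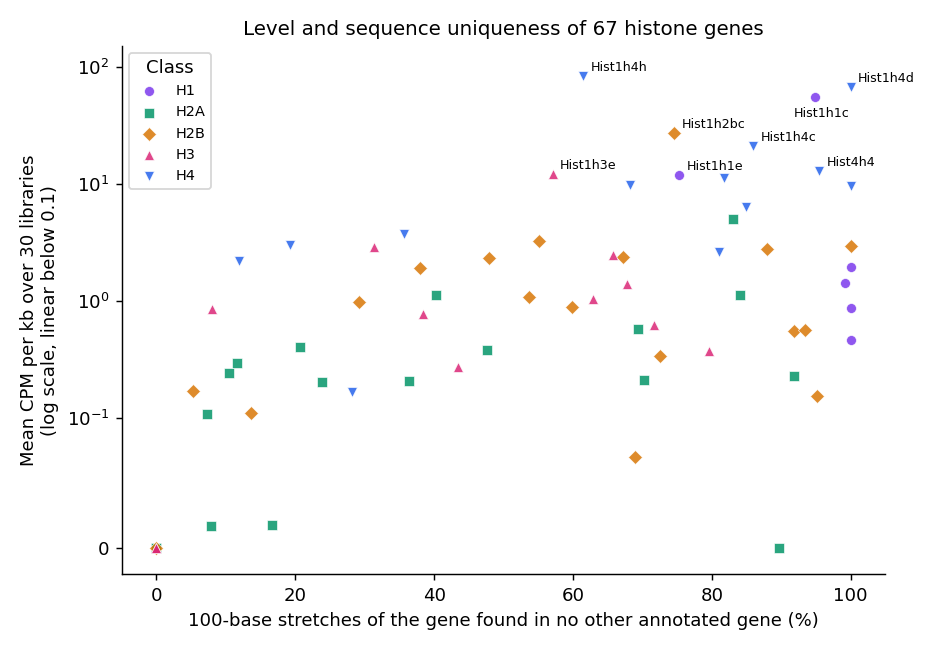
Mean level of each of the 67 histone genes over 30 libraries, in CPM per kb of exon on a log axis that is linear below 0.1, against the percentage of its 100-base stretches found in no other annotated gene; markers give the class. The 5 members at 0% on both axes overlie each other, and Hist1h2aa lies at 89.7% with no count.

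Few members carried most of the signal. Hist1h1c alone held 21.2% of the reads assigned to the family, and the 10 members with the most reads held 84.8%. H4 genes took 49.6% of the reads, H1 29.997%, H2B 14.6%, H3 4.40% and H2A 1.42%. Per kb of exon, the highest mean levels were those of the H4 genes Hist1h4h (83.0 CPM per kb) and Hist1h4d (66.7), then Hist1h1c (54.8), the H2B gene Hist1h2bc (27.0) and Hist1h4c (20.8). H3 was led by Hist1h3e at 12.1 CPM per kb, and H2A by Hist2h2ac at 5.05. The next H3 genes were Hist1h3i (2.90 CPM per kb), Hist1h3f (2.45) and Hist1h3a (1.40), the next H2B genes Hist1h2bg (3.26), Hist2h2be (2.91) and Hist1h2be (2.76), and the next H2A genes Hist1h2ak (1.13), Hist2h2ab (1.11) and Hist1h2ae (0.575). In H1, Hist1h1e was at 11.8 CPM per kb, Hist1h1a at 1.93 and Hist1h1d at 1.41. In all, 24 members averaged at least 1 CPM, and they held 96.6% of the family's reads.

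The libraries held 11232143 to 23710331 counted reads, of which the family took 0.0195% to 0.0282% in exercised hearts, 0.0383% to 0.0557% at 6 months with regular activity and 0.0374% to 0.0619% at 3 months. Dsp averaged 848 ± 90.5 CPM in exercised heterozygotes and 1561 ± 428 CPM in exercised wild types (SD, n = 5 each; edgeR quasi-likelihood adjusted p = 0.0287). At 6 months it averaged 626 ± 41.1 CPM in heterozygotes and 784 ± 173 CPM in wild types (adjusted p = 0.657), and at 3 months 765 ± 213 and 1079 ± 295 CPM in the same order of genotypes (adjusted p = 0.312). The ranges of the genotypes overlapped at each stage. The library labelled heterozygote 3 at 3 months had 1126 CPM of Dsp, above 2 of the 5 wild types of that age. At 6 months wild types 2 and 3 had 664 and 636 CPM, within the heterozygote range of 581 to 680 CPM. Exercised wild type 5 had 928 CPM, below the 939 CPM of exercised heterozygote 1. The myocyte marker list was at 73652 to 118736 summed CPM in all libraries, with Myh6, Ttn and Atp2a2 among the 10 most abundant genes outside the mitochondrial genome. Wild type 4 at 3 months and wild types 2 and 5 at 6 months had Xist above Y-linked reads and over 1 CPM of both, with 2.24 to 5.30 CPM Y-linked. Below, these 3 are meant by libraries with both Xist and Y-linked reads. Most other libraries had traces of both, and exercised wild type 1, with 1.25 CPM Xist and 160 CPM Y-linked, was not among the 3.

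Exercised myocytes had lower mean levels of histone mRNA of every class, in both genotypes. Summed over the 67 members, the level was 272 ± 36.1 CPM in exercised heterozygotes and 448 ± 39.7 CPM in heterozygotes with regular activity (SD, n = 5 each), 1.65-fold lower with exercise. In wild types it was 253 ± 18.6 CPM with exercise and 431 ± 38.0 CPM without, 1.70-fold lower. In both genotypes the 5 exercised libraries lay below all 5 of regular activity, with the highest exercised library at 315 CPM in heterozygotes and 279.6 CPM in wild types and the lowest of regular activity at 413 and 378 CPM in the same genotypes. The summed H3 level was 8.41 ± 1.14 CPM in exercised heterozygotes, against 19.5 ± 3.08 CPM without exercise, and 7.79 ± 0.913 CPM in exercised wild types, against 20.2 ± 3.41 CPM. H3 thus had the largest ratio of the 5 classes, 2.32-fold lower in heterozygotes and 2.59-fold lower in wild types. The H2A sums of wild types were the only class sums to overlap, at 3.64 ± 1.05 CPM with exercise and 5.53 ± 0.872 CPM without. These sums are descriptions and carry no test. In bulk RNA, fewer cells of a type and less RNA per cell cannot be told apart.

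**Figure D2:**
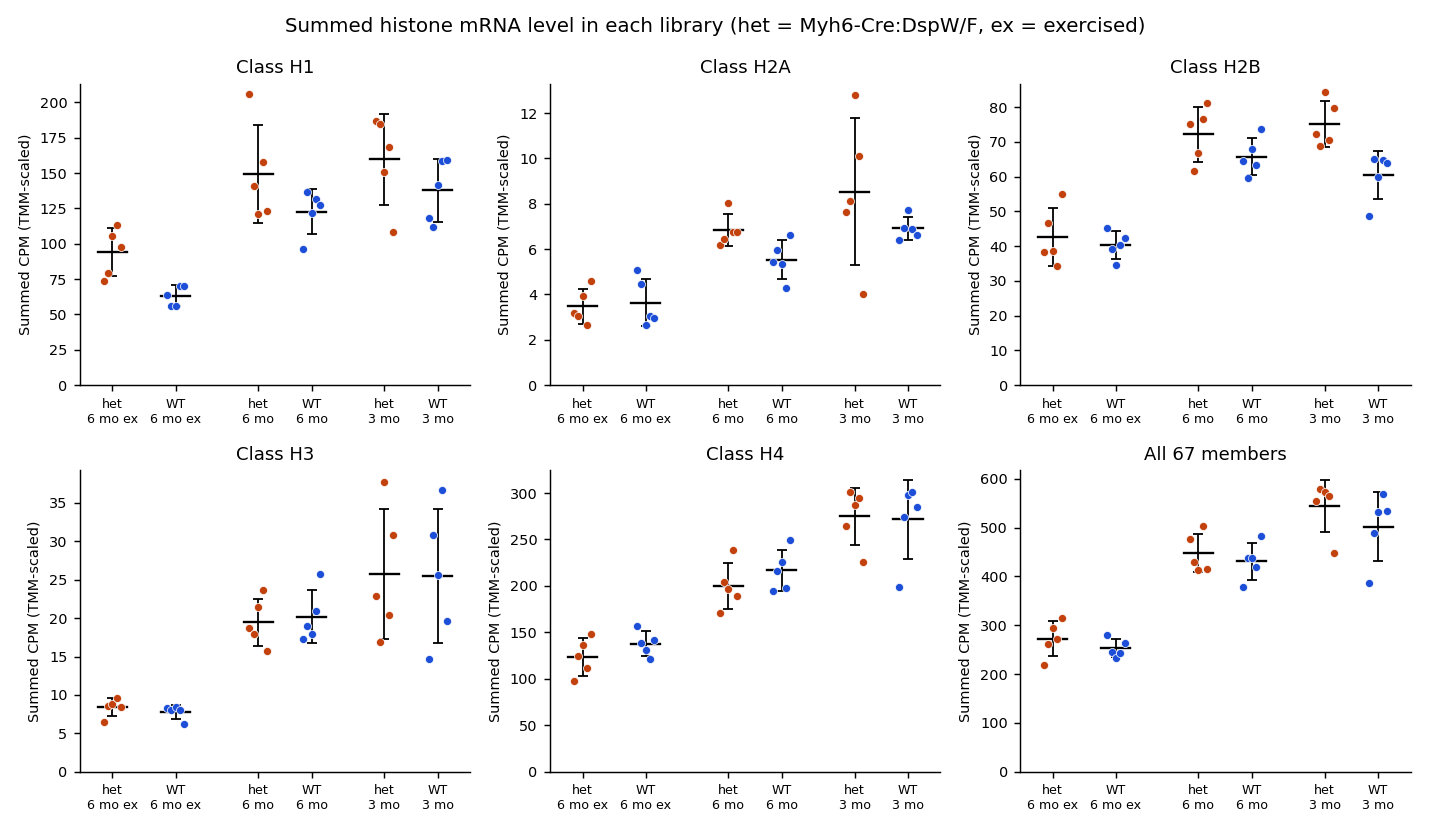
Summed level (CPM after TMM scaling, linear axes from 0) of each histone class and of all 67 members in each library, by group; points are libraries, horizontal bars means and vertical bars SD (n = 5). In both genotypes the exercised libraries lie below those of regular activity without overlap for H1, H2B, H3, H4 and the total, and for H2A in heterozygotes.

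Per gene, 44 members had enough reads to be tested. In heterozygotes 10 of the 44 fell with exercise at an edgeR adjusted p under 0.05 and none rose, where 3.48% of all 15587 tested genes fell and 5.34% rose. In wild types 12 fell and none rose, where 5.05% of all genes fell and 4.64% rose. The median log2 fold change of the tested members was -1.04 in heterozygotes and -0.82 in wild types, with medians of -0.0037 and 0.0059 over all tested genes. The filter on low counts favours genes that are high in some group, so the direction was also read without it. Of all members with a read in either group, 56 of 61 had a lower mean with exercise in heterozygotes and 50 of 60 in wild types, against 52.2% and 49.3% of all genes with a read. Of the 24 members with a mean of at least 1 CPM over all libraries, 23 and 22 had a lower mean in the same genotypes, against 49.9% and 50.4% of the 12756 genes at that level, and 12 and 13 lay lower without overlap, against 4.64% and 6.65% of those genes. Among tested members, 14 of 44 lay lower without overlap in each genotype, against 4.02% of all genes in heterozygotes and 5.58% in wild types. The 2 comparisons share no library, and 5 members fell in both (Hist1h1c, Hist1h2bc, Hist1h3e, Hist1h4c and Hist1h4h), which is 5 of the 10 in heterozygotes and 5 of the 12 in wild types, and 17 fell in at least 1 genotype. Over all tested genes 1.94% fell in both and 6.58% in at least 1. The calls were shared to a like extent over all genes, where 55.9% of those in heterozygotes and 38.5% of those in wild types fell in both, against 50% and 41.7% for the histone genes. When all 3 libraries with both Xist and Y-linked reads were left out, 7 members in place of 12 fell in wild types. Hist1h1d, Hist1h1e, Hist1h2be, Hist1h2bg and Hist2h2ab did not pass. Over all genes 380 in place of 787 fell in the same fit. By class, 1 of 6 H1, 1 of 6 H2A, 2 of 11 H2B, 1 of 9 H3 and 5 of 12 H4 genes tested fell in heterozygotes, and 3, 1, 3, 2 and 3 in the same classes in wild types.

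**Figure D3:**
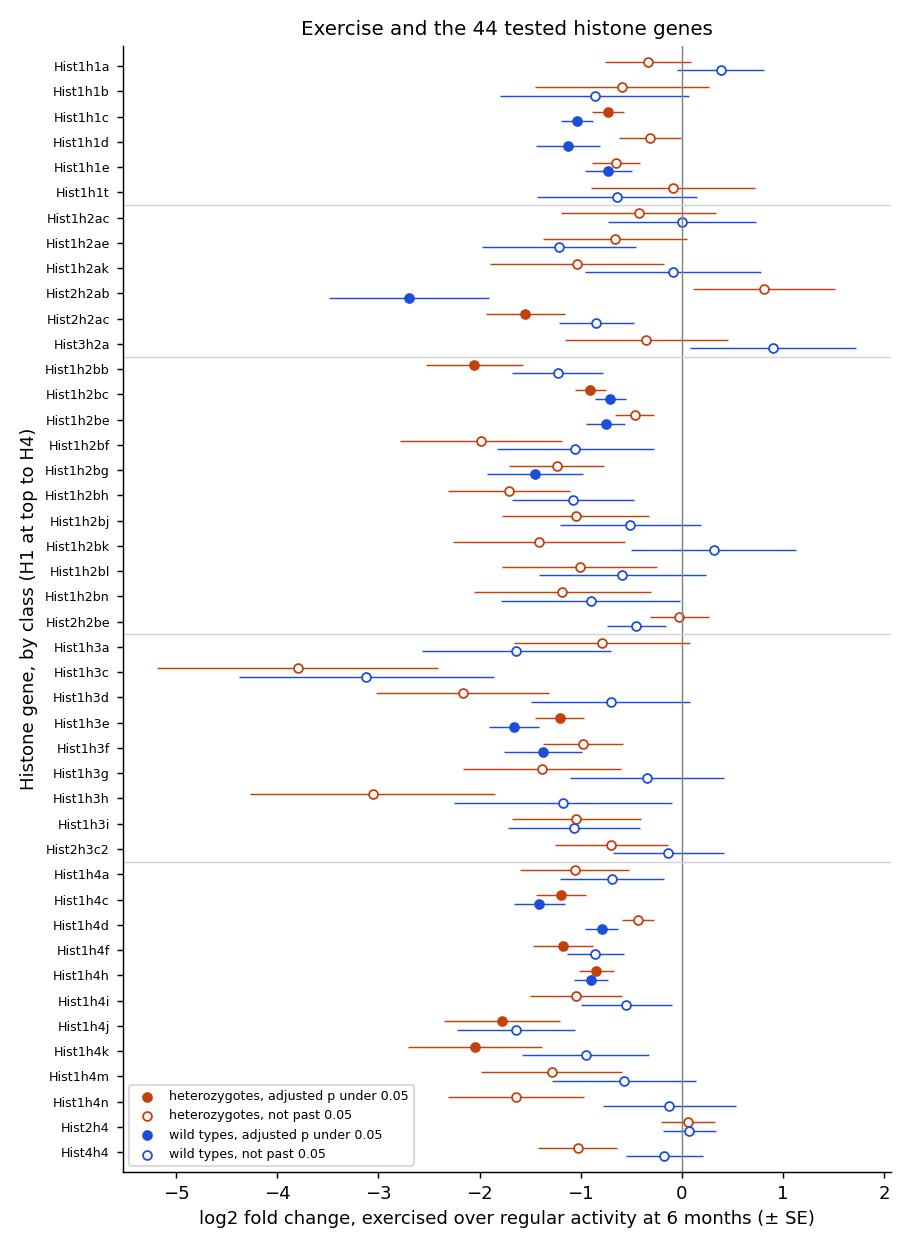
Log2 fold change of each of the 44 tested histone genes in exercised over regular-activity libraries at 6 months, with SE, in heterozygotes and in wild types, by class; filled points passed an adjusted p of 0.05. Nearly all points lie left of 0, 42 of 44 in heterozygotes and 39 of 44 in wild types, and Hist2h4 lies close to 0 in both.

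Several properties of the libraries moved with exercise as well. The mitochondrial genome took 20.9% to 46.9% of counts in exercised libraries and 11.7% to 26.7% at 6 months with regular activity, and small non-coding RNA genes took 0.484% to 1.09% and 1.19% to 1.80% in the same order. At 3 months these shares were 8.90% to 15.4% and 2.12% to 4.54%. All 23 spike-in rows of the table were blank for the 10 exercised libraries, whereas 5 were blank for 9 libraries of regular activity at 6 months, 12 for the other one, and 20 for the 10 libraries of 3 months. Blank rows thus split the libraries by age and exercise, and separate handling of these sets of libraries cannot be told apart from the conditions. The part of these differences in the histone result was not tested. Xist exceeded Y-linked reads in 1 of 5 libraries of each exercised group and in 2 of 5 of each group of regular activity at 6 months. Removal of mitochondrial genes and of the 10 most abundant other genes before scaling left 11 members lower in heterozygotes and 11 in wild types. Over all genes 586 and 726 fell in the same order.

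Markers of other cell types were measured beside these results. The 8 macrophage and monocyte markers summed to 16.2 to 122 CPM in exercised heterozygotes and 47.6 to 92.0 CPM in heterozygotes of regular activity, and to 11.3 to 51.5 CPM in exercised wild types and 15.0 to 29.5 CPM in wild types of regular activity. The 8 fibroblast markers summed to 98.2 to 729 CPM in exercised heterozygotes and 335 to 491 CPM without exercise, and to 88.8 to 307 CPM in exercised wild types and 175 to 202 CPM without. With exercise, none of the 8 macrophage, 8 fibroblast, 8 endothelial or 6 pericyte markers passed the test in either genotype, although all 8 macrophage, 7 fibroblast, 7 endothelial and all 6 pericyte markers had a negative fold change in heterozygotes. In wild types 4, 7, 2 and 4 of the same lists had one. No marker of these lists was at 0 in a whole group. The 6 lymphocyte and 4 neutrophil markers did not pass the low-count filter and were not tested. The neutrophil list summed to 0.415 to 30.2 CPM (median 0.559) in exercised heterozygotes and 0 to 0.499 CPM (median 0.0584) without exercise. In wild types it summed to 0.0592 to 10.8 CPM (median 0.586) with exercise and 0.0969 to 0.305 CPM (median 0.149) without. Of 10 myocyte markers 2 rose with exercise in each genotype, where 5.34% of all genes rose in heterozygotes and 4.64% in wild types. The part of these markers in the histone result was not tested.

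Among linker histone H1 genes, Hist1h1c had the highest level per kb. It encodes the somatic H1 variant H1.2 and lies on chromosome 13 from 23738808 to 23740367 on the + strand. It had 52.3, 55.2, 74.6, 89.3 and 62.1 CPM in exercised heterozygotes, against 165, 110.1, 86.0, 106 and 86.1 CPM in heterozygotes of regular activity. These groups overlap narrowly, and the gene was 1.66-fold lower with exercise (log2 fold change -0.73 ± 0.16 SE, adjusted p = 0.00314). In exercised wild types it had 39.9, 36.9, 38.8, 46.7 and 47.1 CPM, against 69.1, 93.9, 87.2, 89.4 and 89.5 CPM without exercise. There the groups are well apart, with a 2.05-fold lower level (log2 fold change -1.04 ± 0.16, adjusted p = 7.77e-05).

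Hist1h1e, for the somatic variant H1.4, had 14.4 to 17.8 CPM in exercised heterozygotes and 20.1 to 30.3 CPM without exercise, with no overlap but an adjusted p of 0.0824. In wild types it fell to 12.3 to 17.2 CPM with exercise, against 19.2 to 30.6 CPM without (adjusted p = 0.0459), and the call was kept in only 1 of 10 fits with a library left out, the one without wild type 1 of regular activity. Hist1h1e overlaps the annotated Hist1h2be on the same strand, so their reads may be shared. Hist1h1d, for H1.3, fell to 4.55 ± 0.767 CPM in exercised wild types, against 9.93 ± 2.33 CPM in wild types of regular activity (adjusted p = 0.0200), and was lost without wild type 5 of regular activity or exercised wild type 2 or 3 (adjusted p up to 0.0574). In heterozygotes it had 9.43 ± 3.29 CPM with exercise and 11.7 ± 4.24 CPM without, a difference that did not pass (adjusted p = 0.611).

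H2A was the class with the lowest counted levels and the least unique sequences, and only 6 of its 18 genes could be tested. All 18 also overlap an annotated gene on the opposite strand, and the part of this overlap in their low counts was not tested. Hist2h2ac, on chromosome 3 from 96220361 to 96220880, fell to 0.335, 1.18, 1.68, 0.296 and 1.40 CPM in exercised heterozygotes, against 2.84, 3.39, 2.83, 2.93 and 2.34 CPM without exercise. The highest exercised library lay below the lowest of regular activity, and the level was 2.92-fold lower (log2 fold change -1.55 ± 0.39, adjusted p = 0.00996). In wild types Hist2h2ac averaged 1.56 ± 0.620 CPM with exercise and 2.79 ± 0.681 CPM without, and did not pass (adjusted p = 0.163). Its neighbour Hist2h2ab was at 0, 0, 0.127, 0 and 0.306 CPM in exercised wild types, against 0.654, 0.696, 0.549, 0.204 and 0.678 CPM without exercise (adjusted p = 0.0243). This rests on few reads, the ranges overlap, and the call was lost in 5 of 10 fits with a library left out (without wild type 2 or 5 of regular activity, or exercised wild type 1, 2 or 4; adjusted p up to 0.0726). In heterozygotes Hist2h2ab had a fold change of the opposite sign, at 0.393 ± 0.238 CPM with exercise and 0.217 ± 0.110 CPM without (adjusted p = 0.558), and its genotype by exercise interaction had an adjusted p of 0.601.

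H2B genes were led by Hist1h2bc, whose annotated transcript is spliced. It had 17.8, 24.8, 19.998, 17.7 and 20.2 CPM in exercised heterozygotes, against 42.0, 32.8, 30.3, 35.6 and 47.8 CPM without exercise. All 5 exercised libraries lay below the others, 1.88-fold on average (log2 fold change -0.91 ± 0.15, adjusted p = 0.000218). In exercised wild types it had 21.9, 18.4, 22.7, 21.3 and 22.5 CPM, against 34.6, 25.5, 34.4, 37.2 and 42.8 CPM (log2 fold change -0.71 ± 0.15, adjusted p = 0.00260). Hist1h2bc was thus at 17.7 to 24.8 CPM in exercised heterozygotes and 18.4 to 22.7 CPM in exercised wild types.

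Other H2B genes passed the test in 1 genotype each. Hist1h2bb, one of the members with the octamer, fell to 0.358 ± 0.205 CPM in exercised heterozygotes, against 1.52 ± 0.562 CPM without exercise (log2 fold change -2.05 ± 0.48, adjusted p = 0.00551). Hist1h2be, which overlaps Hist1h1e, fell to 7.92 ± 1.31 CPM in exercised wild types, against 13.3 ± 1.503 CPM (adjusted p = 0.0104), and did not pass without the 3 libraries that had both Xist and Y-linked reads (adjusted p = 0.107). Hist1h2bg fell to 0.968 ± 0.556 CPM in exercised wild types, against 2.66 ± 0.550 CPM (adjusted p = 0.0473). Its call was kept in only 2 of 10 fits with a library left out, those without exercised wild type 1 or 4. In the other genotype, Hist1h2bb had 0.318 to 1.01 CPM in exercised wild types and 0.796 to 2.14 CPM without exercise. Hist1h2be had 7.51 to 17.5 CPM in exercised heterozygotes and 12.8 to 18.7 CPM without exercise. Hist1h2bg had 0.517 to 2.25 and 1.47 to 4.15 CPM in the same order. Hist2h2be was at 6.98 ± 3.82 CPM in exercised heterozygotes and 7.10 ± 0.755 CPM without exercise (log2 fold change -0.03 ± 0.29), and at 6.47 ± 1.80 CPM in exercised wild types and 8.83 ± 3.29 CPM without (adjusted p = 0.394). All its 100-base stretches are unique.

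H3 genes had low levels apart from Hist1h3e, on chromosome 13 from 23561534 to 23562369 on the minus strand. It had 3.94, 3.32, 6.15, 4.55 and 4.87 CPM in exercised heterozygotes, against 10.9, 11.8, 9.87, 13.2 and 6.95 CPM without exercise. In exercised wild types it had 3.82, 2.90, 4.57, 3.46 and 2.37 CPM, against 7.65, 11.3, 10.3, 10.2 and 14.9 CPM. Neither genotype's groups overlapped, and the level was 2.31-fold lower in heterozygotes (log2 fold change -1.21 ± 0.24, adjusted p = 0.00141) and 3.16-fold lower in wild types (log2 fold change -1.66 ± 0.25, adjusted p = 4.18e-05). Hist1h3f fell to 1.69 ± 0.386 CPM in exercised wild types, against 4.43 ± 1.88 CPM (adjusted p = 0.0185). That call was lost without wild type 4 of regular activity (adjusted p = 0.0836). In heterozygotes Hist1h3f had 0.295 to 2.14 CPM with exercise and 1.61 to 3.60 CPM without, and did not pass. All 9 tested H3 genes had a negative fold change with exercise in both genotypes. Only 57.1% and 65.7% of the 100-base stretches of Hist1h3e and Hist1h3f were unique.

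H4 genes made up the largest part of the family's reads and had the most members lower in exercised heterozygotes, 5 of 12 tested. Hist1h4h, on chromosome 13 from 23531050 to 23531519 on the + strand, had 19.5, 23.2, 16.7, 15.1 and 13.5 CPM in exercised heterozygotes, against 30.1, 34.3, 28.4, 32.5 and 33.0 CPM without exercise. In exercised wild types it had 20.9, 27.7, 19.8, 26.3 and 22.2 CPM, against 46.8, 30.4, 41.4, 48.6 and 50.8 CPM. The groups were apart in both genotypes, with log2 fold changes of -0.85 ± 0.17 in heterozygotes (adjusted p = 0.00184) and -0.90 ± 0.17 in wild types (adjusted p = 0.000853). Hist1h4c fell to 9.88, 5.25, 9.999, 9.22 and 8.42 CPM in exercised heterozygotes, against 18.5, 20.6, 20.7, 21.4 and 16.5 CPM (adjusted p = 0.00229). In exercised wild types it fell to 8.61, 4.98, 6.29, 4.90 and 11.6 CPM, against 15.8, 16.2, 18.5, 16.2 and 29.3 CPM (adjusted p = 0.000424). Hist1h4c was thus 2.29-fold lower in heterozygotes and 2.65-fold lower in wild types, again without overlap.

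Hist1h4d, all of whose 100-base stretches are unique, fell to 58.1, 43.6, 35.9, 38.4 and 64.5 CPM in exercised wild types, against 77.0, 91.8, 80.1, 71.4 and 95.7 CPM (log2 fold change -0.79 ± 0.16, adjusted p = 0.00162). In heterozygotes it had 56.6 ± 8.36 CPM with exercise and 76.5 ± 11.4 CPM without, ranges that overlapped, with an adjusted p of 0.0883. Hist1h4f fell to 1.68 ± 0.741 CPM in exercised heterozygotes, against 3.83 ± 0.681 CPM (adjusted p = 0.00979). Hist1h4j also fell, to 0.958 ± 0.241 CPM in exercised heterozygotes, against 3.33 ± 2.72 CPM (adjusted p = 0.0483), as did Hist1h4k, to 0.433 ± 0.311 CPM, against 1.84 ± 0.792 CPM (adjusted p = 0.0476). Their calls were lost in 7 and 8 of 10 fits with a library left out, with adjusted p up to 0.252 and 0.129 without heterozygote 3 of regular activity. In wild types Hist1h4f had 2.22 to 3.43 CPM with exercise and 3.13 to 7.02 CPM without. Hist1h4j had 0.426 to 1.67 and 2.11 to 3.54 CPM in the same order, and Hist1h4k 0.178 to 1.53 and 1.21 to 2.13 CPM. None of them passed in wild types. Hist2h4 passed in neither genotype. It was at 14.7 ± 4.65 CPM in exercised heterozygotes and 14.1 ± 2.02 CPM without exercise (log2 fold change 0.06 ± 0.27), and at 16.4 ± 6.57 CPM in exercised wild types and 15.6 ± 4.29 CPM without (log2 fold change 0.07 ± 0.27). Hist4h4 averaged 17.7 ± 9.02 CPM in exercised heterozygotes and 36.2 ± 14.4 CPM without, but its libraries spread widely and the difference did not pass (adjusted p = 0.103). In wild types Hist4h4 had 18.3 to 45.4 CPM with exercise and 27.2 to 53.4 CPM without.

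**Figure D4:**
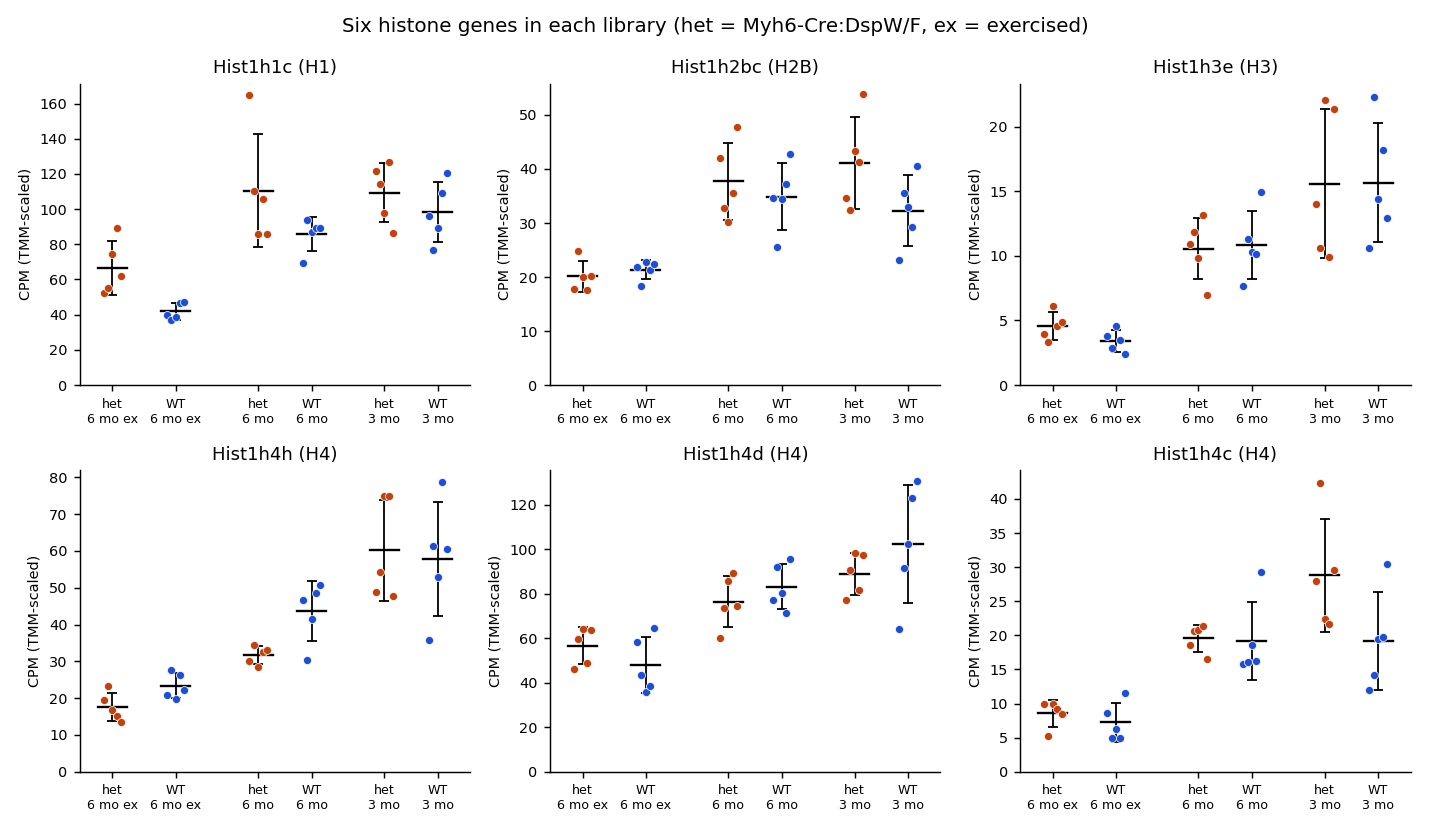
Level of 6 histone genes in each library (CPM after TMM scaling, linear axes from 0), by group; points are libraries, horizontal bars means and vertical bars SD (n = 5). Exercised libraries are lowest for Hist1h3e, Hist1h4h and Hist1h4c in both genotypes, and Hist1h1c is higher in exercised heterozygotes than in exercised wild types.

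Members were also split by annotated 3′ end and by uniqueness. With exercise in heterozygotes, 4 of 21 tested members with more than 100 bases past the stem-loop and 4 of 12 with at most 100 bases fell, with median log2 fold changes of -0.73 and -1.40. In wild types 9 of 21 and 1 of 12 fell, with medians of -0.75 and -0.85. Of the 11 tested members with no stem-loop found, 2 fell in each genotype, with medians of -1.01 and -0.86. Over all genes 3.48% fell in heterozygotes and 5.05% in wild types, and 1 of 12 is near the background. Members with at least 80% unique 100-base stretches had a median of -0.66 in heterozygotes and -0.77 in wild types, and those under 80% had -1.12 and -0.90. These splits are descriptions, and differences between them were not tested.

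Comparison of genotypes gave 1 histone gene, Hist1h1c in exercised hearts, where 0.225% of all tested genes were higher in heterozygotes. It averaged 66.7 ± 15.3 CPM in exercised heterozygotes and 41.9 ± 4.69 CPM in exercised wild types (SD, n = 5 each), with the lowest heterozygote at 52.3 CPM and the highest wild type at 47.1 CPM. The log2 fold change was 0.67 ± 0.16 with an adjusted p of 0.0492, close to the threshold. The call was lost without exercised heterozygote 3 or 4 or without exercised wild type 1, 2, 3 or 4, with adjusted p of 0.0666 to 0.225, and the log2 fold change over all 10 such fits lay between 0.54 and 0.73. Hist1h1c and Hist1h1d were the 2 tested members that lay higher without overlap, against 1.01% of all genes. Hist1h1d was at 9.43 ± 3.29 CPM in exercised heterozygotes, against 4.55 ± 0.767 CPM in exercised wild types, but did not pass (adjusted p = 0.157). The H1 sum was 93.9 ± 16.9 CPM in exercised heterozygotes and 63.2 ± 7.25 CPM in exercised wild types without overlap, while H2A, H2B, H3 and H4 sums overlapped. H1 made up 34.5% ± 4.63 of the summed histone level in exercised heterozygotes and 25.0% ± 2.74 in exercised wild types. H4 made up 41.1% to 47.6% in exercised heterozygotes and 49.9% to 56.3% in exercised wild types, also without overlap. Shares of one total move together, so the H1 and H4 shares are not separate results. The H1 sum is not separate from Hist1h1c either, which held 46442 of the 65741 H1 reads over all libraries. Beside this, all 8 fibroblast and all 8 macrophage markers had a positive fold change in exercised heterozygotes over exercised wild types, and all 5 erythroid, 7 of 8 endothelial and 4 of 6 pericyte markers a negative one. None of these passed the test, and their part was not tested.

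Without exercise, no histone gene passed between the genotypes by edgeR, against 0.135% of all tested genes at 6 months and 0.192% at 3 months. At 6 months 4 of 44 members (9.09%) had an unadjusted p under 0.05, against 8.79% of all genes, and DESeq2 and limma-voom called none either. The smallest p was that of Hist1h4h, at 31.7 ± 2.38 CPM in heterozygotes and 43.6 ± 8.15 CPM in wild types (adjusted p = 0.392), followed by Hist1h1c and Hist1h1a. Hist1h1c averaged 111 ± 32.3 CPM in heterozygotes and 85.8 ± 9.65 CPM in wild types (adjusted p = 0.493). Hist1h1a averaged 1.34 ± 0.539 CPM in heterozygotes and 0.722 ± 0.223 CPM in wild types (adjusted p = 0.554). At 3 months 5 members (11.4%) had an unadjusted p under 0.05, against 11.05% of all genes, and no tool called one. The smallest p belonged to Hist1h1d, with 24.9, 26.1, 17.6, 11.4 and 9.34 CPM in heterozygotes and 5.56, 11.2, 13.1, 13.0 and 4.39 CPM in wild types (adjusted p = 0.228). Heterozygotes 1, 2 and 3 lay above every wild type of that age. Heterozygotes 1 and 2 also had the largest small RNA shares, 4.54% and 3.78%, against 2.38% in heterozygote 3, and the part of these shares was not tested. Hist1h4f and Hist1h4c followed, with adjusted p of 0.324 and 0.351. The H2B sum did not overlap at 3 months, at 68.7 to 84.3 CPM in heterozygotes and 48.6 to 65.1 CPM in wild types. At that age all 8 endothelial markers (median log2 fold change -0.53) and all 5 erythroid markers (median -0.93) had a negative fold change in heterozygotes over wild types, none of which passed, and their part was not tested.

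Between 3 and 6 months of age, 2 H4 genes fell in heterozygotes, against 1.96% of all tested genes that fell. Hist1h4h had 30.1, 34.3, 28.4, 32.5 and 33.0 CPM in heterozygotes at 6 months, against 48.9, 54.4, 74.8, 74.9 and 47.6 CPM at 3 months. Every library of 6 months lay below every library of 3 months, 1.90-fold on average (log2 fold change -0.93 ± 0.17, adjusted p = 0.0015). Hist1h4f had 2.92, 3.63, 3.66, 4.22 and 4.73 CPM at 6 months, against 6.73, 7.78, 9.39, 11.4 and 6.84 CPM at 3 months (log2 fold change -1.13 ± 0.28, adjusted p = 0.0198). This call was lost without heterozygote 3 or 4 at 3 months or heterozygote 1 or 3 at 6 months (adjusted p up to 0.0628). In all, 4 of 44 tested members lay lower without overlap, against 2.84% of all genes. Hist2h2ab was 1 of them, at 0.217 ± 0.110 CPM at 6 months, against 0.965 ± 0.388 CPM at 3 months (adjusted p = 0.0716). The H4 sum was 199.7 ± 24.8 CPM in heterozygotes at 6 months and 275 ± 30.7 CPM at 3 months, with overlap (170.7 to 238 and 226 to 301 CPM). In wild types it was 217 ± 22.3 CPM at 6 months and 272 ± 42.0 CPM at 3 months, also with overlap.

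In wild types no member passed between the ages in edgeR, against 0.86% of all tested genes, 5 (11.4%) had an unadjusted p under 0.05, against 12.2% of all genes, and DESeq2 called 1, Hist1h1a. Hist1h1a averaged 0.722 ± 0.223 CPM at 6 months and 2.05 ± 0.584 CPM at 3 months without overlap (edgeR adjusted p = 0.0897). Hist1h4h averaged 43.6 ± 8.15 CPM in wild types at 6 months and 57.8 ± 15.5 CPM at 3 months (adjusted p = 0.295), and Hist1h2bl 0.404 ± 0.348 and 1.40 ± 1.39 CPM in the same order (adjusted p = 0.321). In heterozygotes, 4 of 8 fibroblast, 3 of 8 macrophage, 1 of 8 endothelial and 1 of 6 pericyte markers rose with age, among them Dcn and Csf1r. Over all genes 228 of 15587 rose. Of 10 myocyte markers 2 fell, Atp2a2 and Tnni3, against 1.96% of all genes. The fibroblast list summed to 335 to 491 CPM in heterozygotes at 6 months and 109.8 to 185 CPM at 3 months. The macrophage list summed to 47.6 to 92.0 CPM in heterozygotes at 6 months and 12.6 to 26.6 CPM at 3 months. The part of these markers in the H4 result was not tested, and the sets of libraries of the 2 ages cannot be told apart from age.

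No member passed the test for a difference between the genotypes in the response to exercise or to age, where 0.0128% and 0% of all tested genes passed. In the interaction of genotype and exercise 1 member had an unadjusted p under 0.05, Hist2h2ab, against 4.91% of all genes, and DESeq2 and limma-voom called none. The next smallest p were those of Hist1h1d (log2 difference of fold changes 0.81 ± 0.44) and Hist1h4n (-1.52 ± 0.94), each with an adjusted p of 0.999. For Hist1h1c the difference of the exercise responses had an adjusted p of 0.999. In the interaction of genotype and age 3 members (6.82%) had an unadjusted p under 0.05, against 8.04% of all genes, and again no tool called one. They were Hist1h4f (log2 difference -0.998 ± 0.393, adjusted p = 0.553), Hist1h2bl (2.34 ± 1.07, adjusted p = 0.600) and Hist1h4h (-0.52 ± 0.24, adjusted p = 0.607).

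Genes that work with the histone genes were set beside them. Of the 10 tested genes listed as replication-independent histone genes, 4 fell with exercise in each genotype and none rose. Over all genes 3.48% fell in heterozygotes and 5.05% in wild types. The list holds histone genes without a Hist1h to Hist4h symbol, and whether each is made apart from the cell cycle was not tested. H2afz, for the variant H2A.Z, fell to 7.12 ± 0.946 CPM in exercised heterozygotes, against 12.2 ± 1.05 CPM (adjusted p = 0.00265), and to 6.32 ± 1.48 CPM in exercised wild types, against 11.1 ± 1.65 CPM (adjusted p = 0.00185). H2afj, H2afx and Cenpa, the centromeric H3 variant, also fell in heterozygotes, and H3f3a, H3f3b and the linker gene H1f0 in wild types. With age, H3f3a and H2afy2 fell in heterozygotes, 2 of the 10, where 1.96% of all genes fell. The replication-independent list had a median log2 fold change of -0.27 with exercise in heterozygotes and -0.46 in wild types, against the -1.04 and -0.82 of the tested members.

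Of 31 tested genes of DNA replication and S phase, none passed with exercise in heterozygotes, where 22 had a negative fold change (median log2 -0.12). In wild types Cdk2, Mcm2 and Fen1 fell and Gmnn, an inhibitor of origin licensing, rose, so that 3 of 31 fell where 5.05% of all genes did. Mcm2, a subunit of the replicative helicase, was at 4.12 ± 0.916 CPM in exercised wild types and 8.01 ± 2.78 CPM without exercise (adjusted p = 0.0205). None of 11 tested genes of G2 and mitosis passed with exercise. In heterozygotes 9 of the 11 had a negative fold change (median log2 -0.49) and in wild types 7 (median -0.16), while their list summed to 29.4 to 76.8 CPM in exercised heterozygotes and 32.0 to 49.9 CPM without exercise.

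Of 19 tested genes of histone mRNA transcription and processing, 1 rose and 1 fell in each exercise comparison, shares near those over all genes (5.34% higher and 3.48% lower in heterozygotes, 4.64% and 5.05% in wild types). The values of these genes are therefore given as descriptions of single genes. Snrpg, a shared Sm core protein of small nuclear RNPs, rose in both genotypes, to 17.01 ± 1.94 CPM in exercised heterozygotes, against 11.6 ± 2.38 CPM, and to 18.3 ± 3.40 CPM in exercised wild types, against 10.4 ± 1.82 CPM. Upf1, a helicase needed for decay of histone mRNA, fell to 26.1 ± 4.11 CPM in exercised heterozygotes, against 37.4 ± 2.53 CPM (adjusted p = 0.00315). Snrpb, another Sm protein, fell to 81.1 ± 7.01 CPM in exercised wild types, against 128 ± 9.69 CPM (adjusted p = 9.47e-05). Slbp, which binds the stem-loop, and Npat, a coactivator of histone genes, were on this list and passed in no comparison. Among 20 histone chaperones, 2 rose with exercise in heterozygotes (Atrx and Ubn2) and 3 in wild types (Atrx, Nap1l1 and the FACT subunit Supt16). Over all genes 5.34% rose in heterozygotes and 4.64% in wild types. Nap1l4 fell with age in heterozygotes, 1 of 20, where 1.96% of all genes fell. These few calls are likewise descriptions of single genes.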

How the data were processed

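The authors sequenced total RNA from mouse cardiac myocytes as strand-specific paired-end libraries after ribosomal RNA depletion, per the labels' protocols, with Trim Galore, HISAT2, featureCounts and the mm10 build named in the submitters' processing notes. The deposited values are raw read counts per gene; annotation release, strand setting and the handling of reads matching several genes are not given in the sources used here.

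The 30 libraries fell into 6 groups of 5 by their labels. Of 52573 table rows, the 23 spike-in rows were left out, which left 52550 genes. Genes with low counts were removed by edgeR's filterByExpr, which left 15587, and TMM scaling and edgeR 4.0.16 quasi-likelihood F tests (R 4.3.3) were run with a mean per group over all 30 libraries, with Benjamini-Hochberg adjustment over all tested genes and a threshold of 0.05. The 9 comparisons were genotype at each of 3 stages, exercise and age in each genotype, and the interactions. CPM are counts per 1e+06 after TMM scaling. DESeq2 1.42.0, limma-voom 3.58.1, other filters, scalings and subsets of libraries were alternatives.

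Members and gene lists were chosen with earlier results of these data known. Named members were those called in any comparison, the 4 with the highest CPM per kb in each class and the 3 with the smallest p in each comparison; on the lists, the genes called and some of those with the smallest p. No pair of columns was identical. Same-numbered libraries did not deviate together (correlations of -0.252 to 0.154 over genes), so no pairing was used. Sequences came from GENCODE M21 transcripts and the RefSeq promoter table (GRCm38.p6). Counting error and spread between libraries set the precision, with 11232143 to 23710331 counts per library.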

Additional observations from a re-analysis of the deposited data

Results flagged for a closer look

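In groups of 5 libraries, a library was taken as standing apart when its gap to the nearest other library, over the range of the group, exceeded 0.71. This was found in 8 of 156 groups (21 members and 5 class sums), and chance alone gives about 1 in 20. Hist1h1c was 69.1 CPM in wild type 1 at 6 months, with the others at 87.2 to 93.9 CPM. Hist1h4c was 29.3 CPM in wild type 5 at 6 months, with the others at 15.8 to 18.5 CPM, a library that had both Xist and Y-linked reads. Hist1h4f was 3.43 CPM in exercised wild type 3, with the others at 2.22 to 2.52 CPM. Hist2h2be was 3.30 CPM in the same library, with the others at 6.87 to 7.76 CPM. Hist1h4n, a gene with few unique stretches, was 2.19 CPM in wild type 4 at 6 months, with the others at 0.855 to 0.945 CPM. Hist4h4 was 53.4 CPM in wild type 3 at 6 months, with the others at 27.2 to 32.9 CPM. The H3 sum was 6.19 CPM in exercised wild type 5, with the others at 7.99 to 8.45 CPM. The H4 sum was 199 CPM in wild type 1 at 3 months, with the others at 274 to 301 CPM.

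Reads were also assigned to histone pseudogenes, which were outside the 67 members. Hist3h2bb-ps had 55 reads over all libraries. Hist1h2al, a processed pseudogene, had 745 reads, of which 3 fell in the 15 heterozygote libraries and 742 in the 15 wild types. Over 3 reads were counted in 7 wild types, with 29, 35, 24 and 66 in exercised wild types 1 to 4, 145 in wild type 4 at 6 months, and 138 and 301 in wild types 2 and 3 at 3 months. No comparison of Hist1h2al passed the edgeR test.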

How the results depend on the processing

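For the summed class levels, the log2 ratio between groups was recomputed with 2 other scalings and with a library left out. Of the latter, the lowest and highest ratio were taken. Each shift was smaller than the SDs of log2 level of both groups combined (root of the summed squares). The lower sums with exercise kept their direction. Among the named genes, 466 of the tallied fold changes kept their side of the threshold, 48 no longer passed and 4 newly passed, and none reversed. This tally does not hold every fit with a library left out, and the losses given for single genes above are not all in it. It thus understates how often calls were lost. Some named genes passed in no comparison, so a kept side does not always mean a kept call. In exercised heterozygotes 10 members fell, 19 by limma-voom and 8 to 11 with a library left out. Over all genes 542 fell, and 1262 and 372 to 609 in the same order. In exercised wild types 12 fell, and 6 at an adjusted p under 0.01. Without the 3 wild types that had both Xist and Y-linked reads 7 fell, and with a library left out 8 to 11. Over all genes 787 fell, and 359, 380 and 559 to 687 in the same order. With age in heterozygotes 2 fell, against 5 called by limma-voom and 1 at 0.01. Without the library labelled heterozygote 3 at 3 months 1 fell, and 1 to 2 with a library left out. Over all genes 306 fell, and 715, 117, 196 and 146 to 381 in the same order. With age in wild types DESeq2 called 1 member lower in place of 0, and 180 of all genes lower in place of 72.

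Between exercised genotypes DESeq2 called 2 members (Hist1h1c and Hist1h1d) in place of 1, and 119 of all genes higher in place of 35. The member count was 0 without the low-count filter, by limma-voom, with only the compared groups in the fit and at 0.01. It was also 0 without heterozygotes 1 and 2 or heterozygote 3 at 3 months. The same held without either set of libraries chosen after seeing the data (exercised wild type 1 with exercised heterozygote 2, or the 3 wild types above). With a library left out it was 0 to 1. In these fits 8 (only the compared groups) to 98 (limma-voom) of all genes were higher. With the replicate number as a block the counts were 9 and 11 for exercise in heterozygotes and wild types and 2 for age in heterozygotes. Over all genes 486, 695 and 225 fell in the same order. No member passed in the other comparisons, Hist1h1c between exercised genotypes included (edgeR adjusted p = 0.0665). Replicate numbers did not pair the libraries. The causes of these shifts were not tested. Members under about 1 CPM and those with few unique stretches are limited by depth and by shared sequence.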
